A study of Mus musculus with 6 samples.

Results

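Chromatin accessibility was examined around 7 genes of the astrocyte endfoot, Aqp4, Kcnj10, Kcnj16, Atp1b2, Dag1, Mlc1 and Hepacam, in astrocyte nuclei that kept or had lost the glucocorticoid receptor (GR, encoded by Nr3c1). The genes were grouped by their known roles, with earlier results of these data known. A peak was counted when its summit lay in the gene body or within 50 kb of it. The 6 peak lists held between 185 and 203 such peaks each, out of 179462 to 198929 in the whole list. Merged over libraries, 156 of the 160876 consensus sites of the genome lay in these windows. A consensus site here is a 401-bp interval around a summit in which at least 2 libraries had a summit.

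All mice were GR fl/fl and received an adeno-associated virus at P0–P1. The virus carried the GfaABC1D promoter, a short GFAP promoter that is active mainly in astrocytes, driving Cre in GR-KO and ΔCre, which cannot recombine DNA, in GR-Con. Both AAV2/5 constructs also encoded T2A-EGFP-KASH, which labels the nuclear envelope, and carried the 4x6T element. Primary visual cortex (V1) was taken at P21, the tissue of 3 to 4 animals was pooled for each replicate, and 50000 DRAQ5+/GFP+ nuclei were sorted for ATAC-seq, in which the Tn5 transposase cuts open DNA. There were 3 libraries of each genotype. Neither strain nor sex is used here, the sort does not separate recombined from unrecombined GFP+ nuclei, and a pool cannot show how single animals vary.

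Astrocyte endfeet are the processes that wrap blood vessels. The water channel AQP4 is concentrated there and is held in place by the dystrophin-associated complex, in which dystroglycan, the product of Dag1, binds laminin of the vascular basement membrane. Inwardly rectifying potassium channels built from KCNJ10 (Kir4.1) and KCNJ16 (Kir5.1), and the sodium pump with its β2 subunit ATP1B2, clear potassium that neurons release, while MLC1 and its partner HEPACAM sit at astrocyte junctions and endfeet and take part in the control of cell volume.

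Promoters of the astrocyte markers had a peak in every library for 7 of 7 genes. Their percentiles of −log10 p among consensus sites within a library lay between 55.8 and 99.02. Those of 6 neuronal markers ranged from 8.14 to 62.3, and 4 of the 6 had a peak in every library. A site without a peak was tied lowest, as at 8.14 for Slc17a7 in GR-Con replicate 1. A promoter site was found for 2 of 4 microglial, 1 of 4 oligodendrocyte, 2 of 2 oligodendrocyte precursor and 1 of 3 endothelial markers. Percentiles were 47.5 to 88.7 at the oligodendrocyte precursor sites and 33.3 to 72.7 at the microglial ones. Both ranges overlapped that of the astrocyte markers, and all of these sites had a peak in every library. The range was 26.3 to 51.1 at the endothelial site and 6.9 to 20.5 at the oligodendrocyte site. On −log10 p ranks limma called 0 of these 19 sites, and 5 had an unadjusted p under 0.05, where 6.37% of all sites were lower and 6.98% higher. All 5 were higher in GR-KO, namely the astrocyte markers Gfap, Slc1a2, Gja1 and Sox9 and the microglial marker Tmem119. All 7 astrocyte promoters had a score difference above 0, where 51.2% of all sites did. It ranged from 0.0017 at Slc1a3 to 0.26 at Slc1a2, with the lowest adjusted p (limma) at Gfap (0.0709). Of the 17 sites in the body of Nr3c1, 1 was lower in GR-KO and 1 was higher. The lower site had a summit coverage of 140, 151 and 130 reads in GR-Con against 36, 24 and 33 in GR-KO, and the higher one had a peak in the 3 GR-KO libraries alone, with a coverage of 39, 32 and 42. Whether either lies in the excised part of the gene was not tested.

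Sequences of 201 bp around the centre are shown for 4 sites of Atp1b2, Kcnj10, Kcnj16 and Mlc1 outside promoters and untranslated regions (those of Aqp4 are not shown here). These are the site upstream of Atp1b2 that was lower in GR-KO, an intronic site of Kcnj10, the weak site upstream of Kcnj16 found in GR-Con alone, and the site 45 kb upstream of Mlc1. An intronic site of Lama2, which encodes the laminin α2 chain, is added because it held a whole glucocorticoid response element. They are the plus strand of mm10, 5′ to 3′. Capitals mark the response element core GNACANNNTGTNC, its arm AGAACA and the arm TTGGC of the NFI palindrome, on either strand, and adjacent or overlapping matches run together.
Atp1b2, upstream (chr11:69611043-69611243): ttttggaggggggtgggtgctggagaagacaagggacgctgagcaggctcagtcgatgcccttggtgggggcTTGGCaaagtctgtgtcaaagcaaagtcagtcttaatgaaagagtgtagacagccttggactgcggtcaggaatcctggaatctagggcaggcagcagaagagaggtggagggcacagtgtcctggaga
Kcnj10, intron (chr1:172342813-172343013): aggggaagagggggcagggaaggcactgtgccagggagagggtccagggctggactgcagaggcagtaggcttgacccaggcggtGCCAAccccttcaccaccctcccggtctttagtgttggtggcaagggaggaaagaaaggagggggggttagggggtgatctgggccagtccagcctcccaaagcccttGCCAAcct
Kcnj16, upstream (chr11:110958883-110959083): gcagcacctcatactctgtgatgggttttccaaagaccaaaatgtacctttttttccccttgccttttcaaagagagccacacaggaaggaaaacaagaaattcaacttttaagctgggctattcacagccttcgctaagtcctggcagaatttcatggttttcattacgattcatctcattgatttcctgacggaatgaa
Mlc1, upstream (chr15:89024127-89024327): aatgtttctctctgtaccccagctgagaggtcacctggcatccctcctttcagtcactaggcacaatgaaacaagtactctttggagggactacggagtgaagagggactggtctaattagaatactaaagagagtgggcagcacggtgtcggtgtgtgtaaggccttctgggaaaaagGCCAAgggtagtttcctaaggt
Lama2, intron (chr10:27103807-27104007): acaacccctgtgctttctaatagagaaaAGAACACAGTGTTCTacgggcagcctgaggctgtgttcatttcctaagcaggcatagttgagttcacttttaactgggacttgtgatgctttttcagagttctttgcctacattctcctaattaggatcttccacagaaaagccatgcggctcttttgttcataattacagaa

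The core was sought within 100 bp of each centre, on both strands. It was present at 1 of the 156 sites of the endfoot genes (0.641%) and at 1035 of all 160876 consensus sites (0.643%). The single match lay 48100 bp downstream of an Aqp4 start site. The whole NFI palindrome, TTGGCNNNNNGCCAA, was present at 0 of the 156 sites and at 0.0559% of all sites. The single arms, which were added after the data had been seen, were common. AGAACA was present at 34 sites (21.8%, against 17.4% of all sites) and TTGGC at 67 sites (42.9%, against 48.4%). A match describes the letters of these windows only.

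The deposited lists give a fold enrichment and a −log10 p at each summit. Both were compared between genotypes as ranks among the consensus sites within a library, where a missing peak was tied lowest. The read count at the summit, called summit coverage below, was solved from the same pair of values and came out as a whole number for 100% of peaks. How far each read was shifted or extended before counting is not given in the lists. It is given for each library in the order of replicates 1, 2 and 3. As libraries differ in depth, coverage was compared after 4 scalings (by the median, the local background, quantiles and depth). Local background here is its median over sites in a library, not the value at each site. Median, local background and depth each divide a library by a single number, so their log2 ratios differ by a constant. The scalings are therefore not independent checks. A ratio below is GR-KO over GR-Con after scaling by the median unless depth is named, with its 95% confidence interval.

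By fold rank, 0 of the 156 sites were lower in GR-KO and 0 were higher (limma, adjusted p), where 0.127% of all consensus sites were lower and 0.0615% were higher. At an unadjusted p under 0.05, 2 were lower (1.28%) and 6 were higher (3.85%), beside 6.02% and 6.11% of all sites. By −log10 p rank, 1 site was lower and 3 were higher, against 0.84% and 0.765% of all sites. The lower site belonged to Atp1b2, and the higher sites to Aqp4 (2 sites) and Atp1b2 (1 site). Coverage could be compared at the 115 sites with a peak in all 6 libraries. Of these, 2 were lower and 2 were higher under each of the 4 scalings, against 2.47% and 1.97% of the 99766 such sites in the genome. The counts under all 4 scalings lie near the share called over the whole genome. By unscaled coverage the libraries of the genotypes did not overlap at 10 of the 115 sites that were higher in GR-KO and at 19 that were lower, beside 6.04% and 16.6% of all such sites, so that a lack of overlap at a single site below is common in the genome.

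How many sites passed in each direction depended on the scaling. Scaled by the median, 2 of the 115 sites were lower and 9 were higher, beside 2.62% and 4.68% of all sites. Scaled by depth, 3 were lower and 2 were higher, beside 3.94% and 1.97%. Of all the calls in the genome, the higher ones made up 64.1% with the median and 33.4% with depth. The median log2 difference over the 115 sites was 0.10 with the median and 0.00 with depth, beside 0.04 and -0.05 over all sites.

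**Figure D1:**
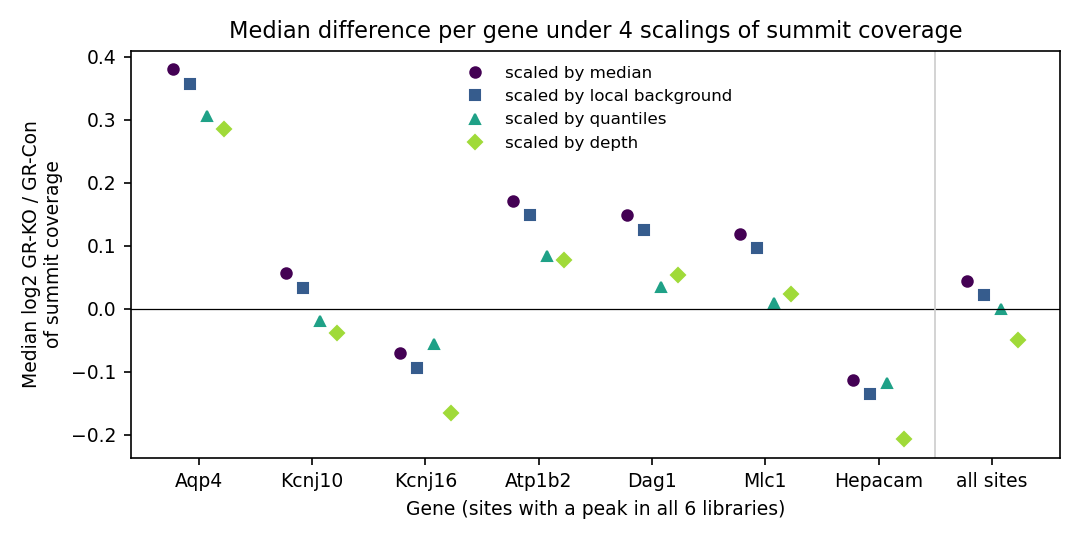
Median log2 ratio of summit coverage, GR-KO over GR-Con, for the sites of each gene that had a peak in all 6 libraries, under 4 scalings (marker shapes), with the same median over all 99766 such sites of the genome at the right. Aqp4 lies above the other genes under each scaling, from 0.29 to 0.38, and Hepacam and Kcnj16 lie below 0 under each.

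Aqp4, the water channel, had 22 sites in its window on chromosome 18, all of them nearer to a start site of Aqp4 than to that of any other protein-coding gene, and 13 had a peak in every library. Aqp4 has several annotated start sites, and each distance below is to the nearest of them. The median log2 difference of these 13 sites was 0.38, 0.36, 0.31 and 0.29 when scaled by the median, local background, quantiles and depth. Scaled by the median, 12 of the 13 were above 0, 6 passed the test and none of the 6 was lower, where 57.2% of all sites were above 0 and 4.68% were called higher. Scaled by depth, 11 were above 0 and 2 passed, where 41.3% of all sites were above 0 and 1.97% were called higher. The scores of the 7 astrocyte marker promoters by −log10 p rank were also above 0, as at 51.2% of all sites. None of them passed the test. These scores are not coverage ratios, and their part in the Aqp4 values was not tested.

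The site with the widest difference was intergenic, 1357 bp upstream of an Aqp4 start site (chr18:15412139-15412539). Its summit coverage was 33, 27 and 21 reads in GR-Con and 86, 83 and 71 reads in GR-KO. All 3 GR-KO libraries lay above the highest control. The ratio was 3.29 (2.4 to 4.51; limma, adjusted p = 2.61e-08), and 3.08 (2.24 to 4.22) when scaled by depth. It stayed past the threshold when any 1 library was left out, with adjusted p up to 1.05e-05. Among consensus sites the site stood at percentiles 53.0, 46.6 and 27.6 by −log10 p in GR-Con and at 76.7, 74.9 and 72.6 in GR-KO. The score difference was 0.87 ± 0.146 (SE, n = 3 per group, limma, adjusted p = 0.00303). That call was lost without GR-Con replicate 2 or GR-KO replicate 1 or 2 (limma, adjusted p from 0.0645 to 0.0835). By fold rank the score difference was 0.82 ± 0.177 with an adjusted p of 0.113 (limma), which did not pass. The fold itself, 6.39, 5.27 and 3.18 in GR-Con and 12.2, 10.7 and 9.90 in GR-KO, did not overlap between genotypes.

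A strong intergenic site 31025 bp upstream (chr18:15441807-15442207) had a coverage of 373, 361 and 318 reads in GR-Con and 474, 462 and 498 in GR-KO, again without overlap. The ratio was 1.50 (1.32 to 1.70; limma, adjusted p = 3.0e-06), and 1.40 (1.2 to 1.64; adjusted p = 0.0014) when scaled by depth. Its −log10 p rank was higher in GR-KO by a score of 0.43 ± 0.0843 (SE, n = 3 per group; limma, adjusted p = 0.0103). By contrast the fold, 24.6, 24.2 and 20.5 in GR-Con and 25.7, 23.7 and 24.8 in GR-KO, overlapped between genotypes (limma, adjusted p = 0.516). With the replicate numbers as a block the −log10 p call was lost (adjusted p = 0.0658), as it was without any GR-Con library or without GR-KO replicate 3 (adjusted p from 0.0864 to 0.136). The coverage call held without any 1 library (adjusted p up to 0.000253).

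Further sites of Aqp4, 3 in number and named here after their values were seen, passed with 3 of the 4 scalings and not with depth. At 10575 bp upstream the coverage was 319, 324 and 272 reads in GR-Con and 383, 368 and 345 in GR-KO, a ratio of 1.31 (1.15 to 1.50). Its fold ran the other way, at 18.5, 17.4 and 16.3 in GR-Con and 17.4, 16.2 and 16.1 in GR-KO, which overlap (score -0.065; limma by fold rank, adjusted p = 0.736). At 23085 bp upstream it was 154, 149 and 137 against 174, 198 and 185, a ratio of 1.39 (1.17 to 1.63). At 44552 bp downstream it was 118, 109 and 109 against 135, 130 and 162, a ratio of 1.39 (1.15 to 1.67). None of the 3 overlapped between genotypes, but their adjusted p-values with depth (limma) were 0.118, 0.0713 and 0.115. With median scaling the calls held in 5, 4 and 4 of the 6 fits that left out 1 library, with adjusted p up to 0.0576, 0.0569 and 0.179.

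The promoter site of Aqp4, 102 bp inside the transcript that starts nearest to it, had 189, 199 and 198 reads in GR-Con and 206, 232 and 256 in GR-KO. The ratio was 1.29 (1.11 to 1.50; limma, adjusted p = 0.0231) and 1.21 (1.02 to 1.43; adjusted p = 0.21) with depth, so that it passed with median scaling and not with the other 3. Without GR-Con replicate 1 or 3 or GR-KO replicate 2 or 3 the call with median scaling was lost (adjusted p from 0.0598 to 0.198). The most accessible site of the window, chosen after its values were seen, lay in an intron of Aqp4 (chr18:15405101-15405501), 1543 bp upstream of an internal start site. It had 661, 630 and 556 reads in GR-Con and 671, 643 and 599 in GR-KO, which overlap (limma, adjusted p = 0.201). At the intergenic site that holds the response element core, 48100 bp downstream of an internal start and 37594 bp beyond the gene, coverage was 142, 122 and 158 reads against 125, 135 and 135, which overlapped, with a ratio of 1.03 (0.861 to 1.23) and of 0.964 (0.795 to 1.17) with depth. The fold there, 11.1, 10.6 and 11.4 in GR-Con and 9.31, 10.1 and 9.51 in GR-KO, was lower in every GR-KO library, and its rank did not pass the test (score -0.101 ± 0.0685, SE; limma, adjusted p = 0.581). None of the Aqp4 sites that passed a test held the whole core.

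**Figure D2:**
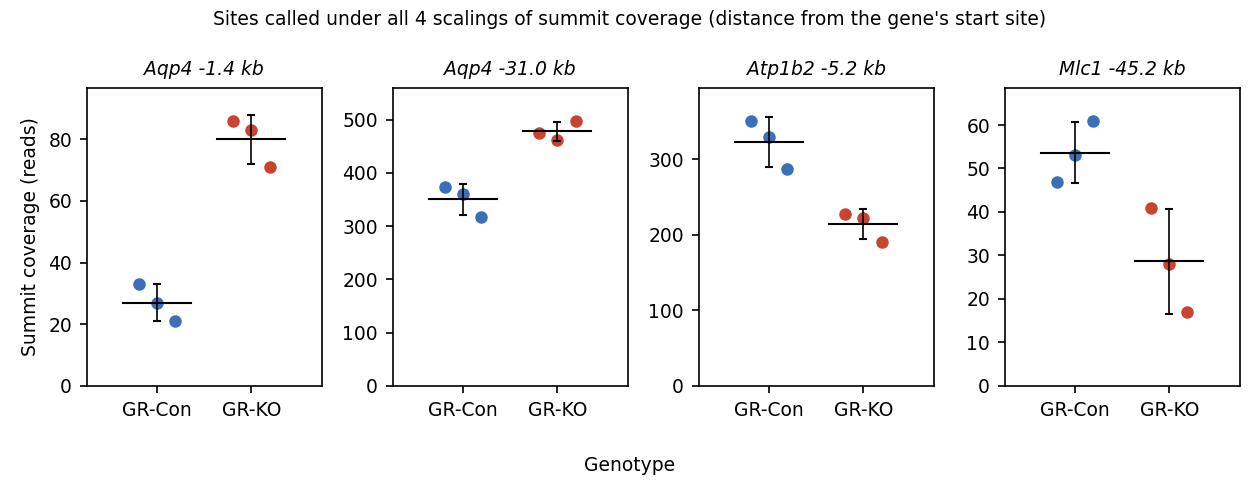
Summit coverage in reads (vertical axis, from 0) at the 4 sites called under all 4 scalings, in 3 GR-Con and 3 GR-KO libraries; points are libraries, horizontal lines the mean and bars the SD. The 2 Aqp4 sites were higher in each GR-KO library than in any GR-Con library (71 to 86 against 21 to 33 reads, and 462 to 498 against 318 to 373), while the Atp1b2 and Mlc1 sites were lower (191 to 228 against 287 to 351, and 17 to 41 against 47 to 61).

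Kcnj10 encodes the pore-forming channel subunit Kir4.1. Its window on chromosome 1 held 29 sites, 27 of them with a peak in every library. The promoter site, 108 bp upstream of the start site (chr1:172340902-172341302), had 467, 478 and 450 reads in GR-Con and 453, 481 and 443 in GR-KO, values that overlap throughout. The ratio was 1.08 (0.957 to 1.22), and 1.01 (0.866 to 1.18) with depth. The intronic site shown above, 1703 bp downstream of the start, had 419, 401 and 372 reads in GR-Con and 478, 462 and 449 in GR-KO. Every GR-KO library lay above the controls there, with a ratio of 1.28 (1.13 to 1.45; limma, adjusted p = 0.00618) but 1.2 (1.02 to 1.4; adjusted p = 0.195) with depth. It also missed the threshold by −log10 p rank (limma, adjusted p = 0.0696), though not among sites with a peak in all 6 libraries (0.0405) or in any library (0.0467). The site with the smallest p by fold rank, 50980 bp downstream and nearest to Pigm, had 60, 45 and 55 against 52, 35 and 27 reads and did not pass any test. Over the 27 sites the median log2 difference was 0.06 with the median and -0.04 with depth.

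Kcnj16 encodes Kir5.1, which forms channels together with Kir4.1. Its window was the sparsest of the 7, with 11 sites in 160 kb (6.88 per 100 kb, against 13.0 to 21.8 for the others). The promoter site, 80 bp upstream of a start site, had 205, 169 and 170 reads in GR-Con and 156, 183 and 155 in GR-KO, which overlap. The ratio was 0.995 (0.844 to 1.17), and 0.932 (0.779 to 1.12) with depth. Among all 156 sites, 1 had a peak in all 3 GR-Con libraries but none of the GR-KO libraries, where 1.15% of all consensus sites did, and it lay 9050 bp upstream of Kcnj16. Its coverage was only 24, 20 and 13 reads, and the GR-KO lists hold no summit there, so their coverage is not known. It passed neither rank test, in which the missing peaks entered as tied lowest (limma, adjusted p = 0.21 by fold rank and 0.253 by −log10 p rank). The opposite pattern, a peak in all 3 GR-KO libraries alone, was found at 0 of the 156 sites and at 0.622% of all sites.

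Atp1b2 encodes the β2 subunit of the sodium pump, which is abundant in astrocytes. Its gene is short and lies among others, so that 8 of its 22 sites were promoters of other genes and only 5 had Atp1b2 as the nearest protein-coding start. The intergenic site 5201 bp upstream (chr11:69610943-69611343) had 351, 330 and 287 reads in GR-Con and 228, 222 and 191 in GR-KO. All 3 GR-KO values lay below all 3 controls. The ratio was 0.725 (0.628 to 0.838; limma, adjusted p = 0.00149), and 0.679 (0.576 to 0.801; adjusted p = 0.000306) with depth, and it stayed past the threshold without any 1 library (adjusted p up to 0.0412). By −log10 p the site fell from percentiles 92.7, 92.1 and 90.3 to 87.5, 86.1 and 84.2 (score -0.31 ± 0.0622, SE; limma, adjusted p = 0.0128), a call lost without GR-Con replicate 1 or 2 or GR-KO replicate 2 or 3 (adjusted p from 0.085 to 0.161). Its fold rank did not pass (limma, adjusted p = 0.42).

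The promoter site of Atp1b2, 49 bp upstream of the start, went the other way. It had 347, 340 and 362 reads in GR-Con and 370, 436 and 409 in GR-KO, without overlap. By −log10 p rank it was higher in GR-KO (score 0.24 ± 0.0592, SE, n = 3 per group; limma, adjusted p = 0.0463), a call that was lost with the replicate block (adjusted p = 0.0973) and when any 1 of the 6 libraries was left out (adjusted p from 0.052 to 0.209). The coverage ratio was 1.27 (1.11 to 1.44; limma, adjusted p = 0.0107) and, with depth, 1.19 (1.01 to 1.39; adjusted p = 0.234), so the test passed with median scaling alone, and not without GR-KO replicate 2 (adjusted p = 0.122) or 3 (0.0601). The upstream site and the promoter of Atp1b2 therefore moved in opposite directions by −log10 p rank, 1 lower and 1 higher.

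Dag1 encodes dystroglycan. Its window held 30 sites, the most of the 7 genes, of which 12 were nearest to a Dag1 start. The promoter site, 19 bp inside the first exon, had 421, 408 and 406 reads in GR-Con and 460, 443 and 370 in GR-KO, so that 2 GR-KO libraries lay above and 1 below the controls. The ratio was 1.12 (0.99 to 1.27), and 1.05 (0.90 to 1.23) with depth. The smallest p in both rank tests fell in the 3′ end of the gene, in an untranslated region 58596 bp downstream of the start, where coverage was 113, 108 and 129 reads in GR-Con and 167, 136 and 127 in GR-KO. These overlap, and the site passed by coverage with median scaling alone (limma, adjusted p = 0.0382; 0.191 with depth). Without GR-Con replicate 1 or 2 or GR-KO replicate 1 or 2 that call was lost (adjusted p from 0.0683 to 0.271).

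Mlc1 and Hepacam encode the membrane protein MLC1 and the adhesion molecule GlialCAM, which brings MLC1 to cell junctions. The promoter site of Mlc1, 42 bp upstream of the start, had 529, 482 and 455 reads in GR-Con and 531, 463 and 474 in GR-KO, and that of Hepacam, 57 bp upstream of a start, 459, 497 and 466 against 444, 486 and 492. Both overlap between genotypes in coverage. The ratios were 1.10 (0.969 to 1.24) for Mlc1 and 1.09 (0.969 to 1.24) for Hepacam, or 1.03 (0.879 to 1.2) and 1.02 (0.877 to 1.2) with depth. The fold at the Hepacam promoter, 13.7, 14.1 and 12.4 in GR-Con and 15.7, 15.3 and 16.4 in GR-KO, did not overlap, and this site had the smallest p by fold rank near Hepacam, without passing (score 0.22 ± 0.0638, SE; limma, adjusted p = 0.211). Fold percentiles of the genotypes did not overlap at 11.6% of all sites with GR-KO higher and at 7.58% with GR-KO lower.

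A weak site 45220 bp upstream of Mlc1 (chr15:89024027-89024427) lay in an intron of Mov10l1, 614 bp from its start site, and so is closer to that gene than to Mlc1. It had 47, 53 and 61 reads in GR-Con and 41, 28 and 17 in GR-KO, all lower than the controls but spread widely. The ratio was 0.552 (0.390 to 0.783; limma, adjusted p = 0.0224), and 0.517 (0.369 to 0.725; adjusted p = 0.00509) with depth. With median scaling the call was lost without GR-Con replicate 2 or 3 or without GR-KO replicate 2 or 3 (adjusted p from 0.054 to 0.255), and neither rank test passed (0.262 by fold, 0.152 by −log10 p), except that −log10 p rank did among sites with a peak in all 6 libraries (0.0471). Near Hepacam, the smallest p by −log10 p rank belonged to an intronic site of Ccdc15, 43237 bp upstream, with 17, 16 and 12 reads in GR-Con and 33, 26 and 14 in GR-KO. Those ranges overlap, and the site passed neither rank test and no scaling of coverage with all 6 libraries, while without GR-KO replicate 3 it passed by coverage (limma, adjusted p = 0.018). Inside Hepacam, an intronic site 8336 bp downstream of the start, named after its values were seen, had 122, 138 and 107 reads against 93, 82 and 80. With all 6 libraries it was lower with depth scaling alone (ratio 0.715, 0.574 to 0.889, limma, adjusted p = 0.0461). With median scaling it passed in 1 of the 6 fits that left out a library (limma, adjusted p up to 0.389).

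**Figure D3:**
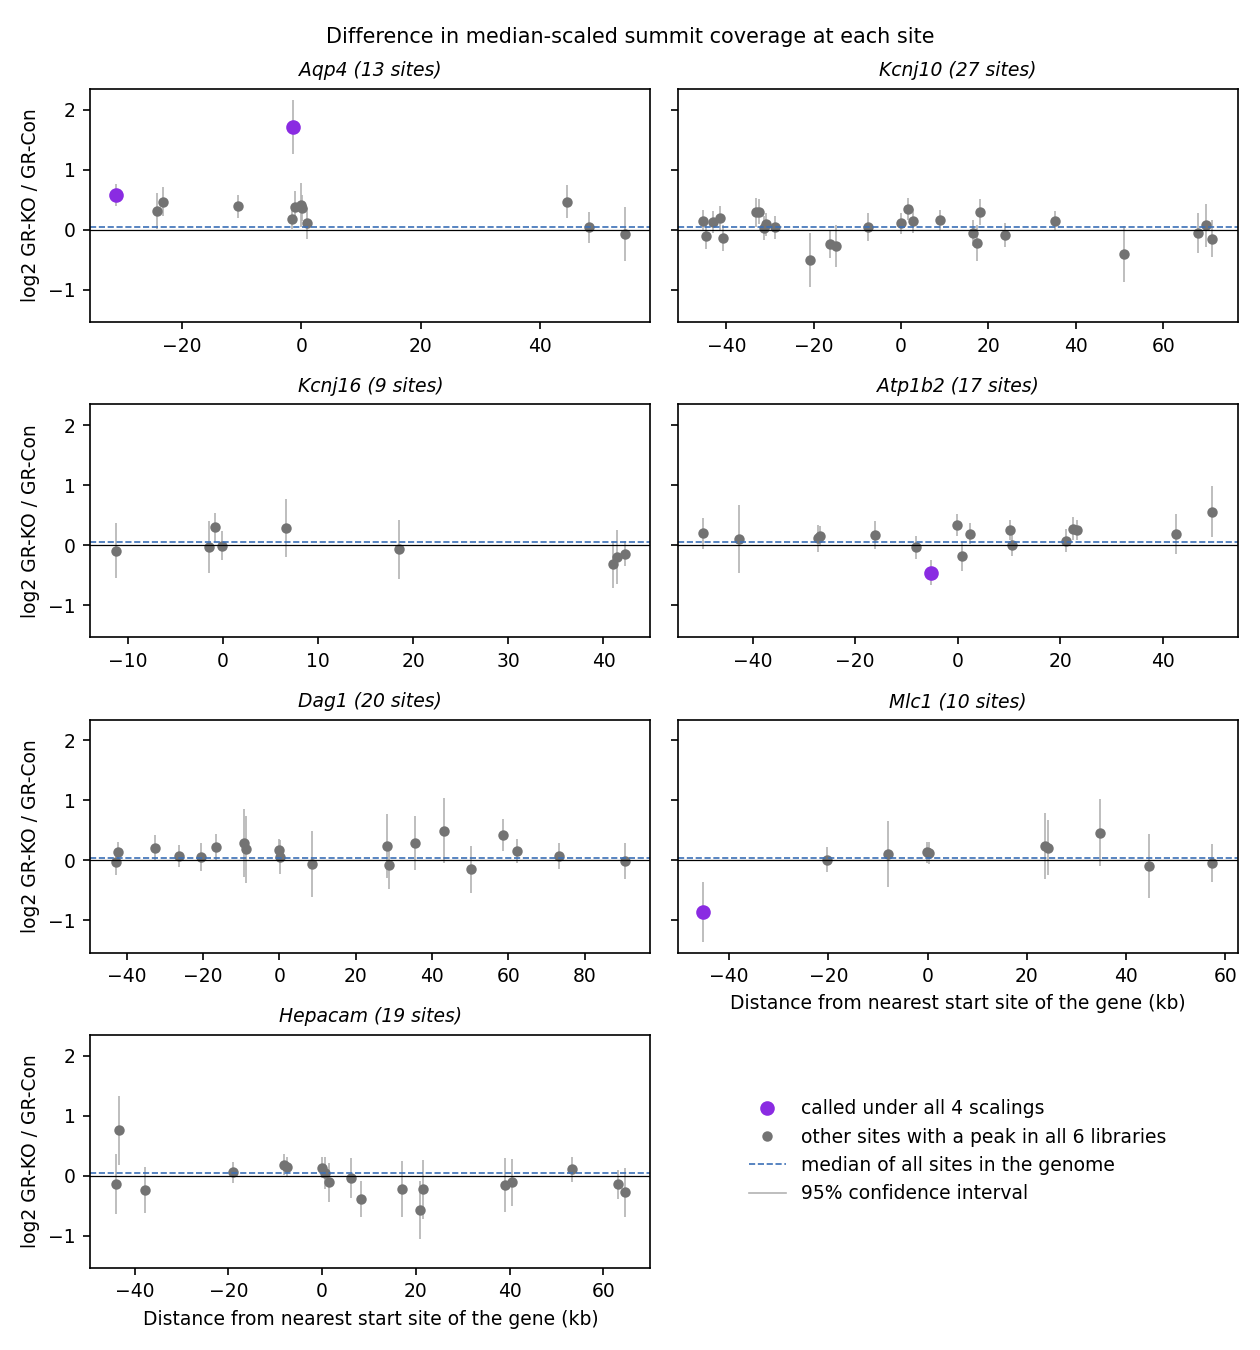
Log2 ratio of median-scaled summit coverage, GR-KO over GR-Con (vertical axis), against the distance in kb from the nearest start site of the gene (negative is upstream), for the 115 sites with a peak in all 6 libraries; bars are 95% confidence intervals and the dashed line is the median of all sites in the genome (0.04). Purple points are the 4 sites called under all 4 scalings, at Aqp4 (1.72 and 0.58), Atp1b2 (-0.46) and Mlc1 (-0.86).

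The 7 promoters were then set in order of summit coverage, averaged over the 6 libraries. Within 500 bp of a start site lay 12 sites, 2 each for Aqp4, Atp1b2, Dag1, Mlc1 and Hepacam, and the site nearest to a start is ranked for each gene. The second sites of Atp1b2 and Hepacam had a peak in 5 and 2 libraries, and those of Aqp4, Dag1 and Mlc1 had 56 to 88, 103 to 150 and 339 to 399 reads. Coverage counts reads over 1 base and so does not grow with the length of a gene. Mlc1 had 489 ± 33.1 reads (SD, n = 6), Hepacam 474 ± 20.9, Kcnj10 462 ± 15.7, Dag1 418 ± 31.5, Atp1b2 377 ± 37.5, Aqp4 213 ± 25.5 and Kcnj16 173 ± 18.8. Each neighbour overlapped with the next in its range over libraries except Atp1b2 and Aqp4, whose ranges of 340 to 436 and 189 to 256 reads were separate. The Aqp4 promoter was below 5 of the other 6, while its range overlapped that of Kcnj16, and the intronic site of Aqp4 described above had more reads, 556 to 671, than any of the 7 promoters. Of 14152 other promoters, those of Nxt1, Rdh5 and Cep89 followed the mean fold score of the 7 most closely over the 6 libraries (Pearson r of 1.00, 0.996 and 0.996), and 131 had an r over 0.95.

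**Figure D4:**
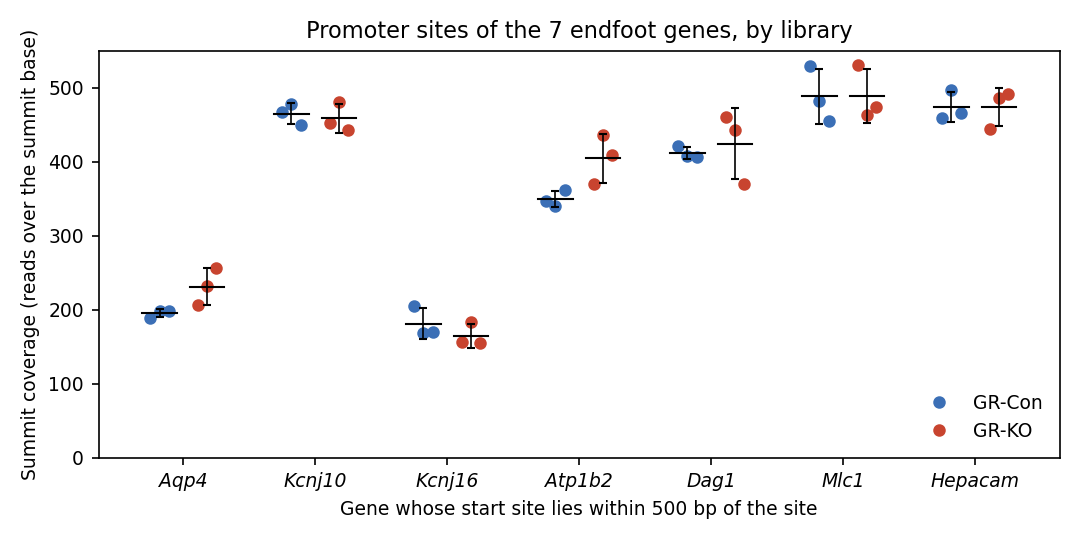
Summit coverage in reads (vertical axis, from 0) at the promoter site of each of the 7 genes, in 3 GR-Con and 3 GR-KO libraries; points are libraries, horizontal lines the mean and bars the SD. Genotypes overlap at Kcnj10, Kcnj16, Dag1, Mlc1 and Hepacam and do not overlap at Aqp4 and Atp1b2, where GR-KO lies above GR-Con, as it does at 6.04% of all sites with a peak in every library.

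The peaks in a window were also counted. Per 100000 peaks of a list, 104.1 ± 2.06 (SD, n = 3) lay near the 7 genes in GR-Con and 103.9 ± 3.90 in GR-KO (2-sided exact permutation test, p = 1). The Aqp4 window held 22, 22 and 22 peaks in GR-Con and 25, 28 and 24 in GR-KO (exact permutation, p = 0.1). That is the smallest p that 3 libraries against 3 can give, and it is not adjusted for the 7 genes tested. For the other genes the exact p ranged from 0.2 to 1. Of the 156 sites, 115 (73.7%) had a peak in all 6 libraries, against 62.0% of all consensus sites.

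A list of 22 other genes of the endfoot, of the dystrophin complex and of ion transport had 662 sites outside the 7 windows. By −log10 p rank 9 of them were lower in GR-KO (1.36%) and 3 were higher (0.453%), beside 0.84% and 0.765% of all sites. By fold rank limma called 0 of the 662 sites (28 lower and 38 higher at an unadjusted p under 0.05, where 6.02% and 6.11% of all sites were). By coverage, at the 388 sites with a peak in all 6 libraries, 12 were lower and 18 higher with the median (3.09% and 4.64%) and 17 and 7 with depth (4.38% and 1.80%), so that the lean depended on the measure and the scaling. The sites described next are those called by −log10 p rank. The lower sites lay in the windows of Lrrc8a (4), which encodes a volume-regulated anion channel subunit, Kcnk1 (2), Lama2 (2), which encodes the laminin α2 chain that dystroglycan binds, and Dtna (1), which encodes α-dystrobrevin of the dystrophin complex. Of the 4 in the window of Lrrc8a, 2 lay in introns where Gm28035 overlaps it and 2 lay beyond Lrrc8a, and the nearest protein-coding start was that of Gm28035 or Phyhd1. The higher sites lay in the windows of Trpv4, Aqp9 and Sgcb, those of Trpv4 and Sgcb in introns of Fam222a and Spata18, whose starts were the nearest. The median score difference over the 662 sites was 0.02, against 0.01 over all sites.

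In an intron of Dtna coverage was 241, 247 and 159 reads in GR-Con and 62, 55 and 62 in GR-KO, a ratio of 0.308 (0.250 to 0.380; limma by −log10 p rank, adjusted p = 4.38e-05). In the intron of Lama2 shown above it was 186, 209 and 147 against 48, 64 and 69 reads, a ratio of 0.365 (0.294 to 0.454; adjusted p = 0.000163). The genotypes did not overlap at either site. The response element core was present at 7 of the 662 sites (1.06%) and at 3 of the 9 that were lower, namely the Dtna site and both Lama2 sites. Over the genome it was present at 234 of the 1351 sites that were lower by the same test (17.3%) and at 0 of the 1230 that were higher. The second Lama2 site was near the threshold by −log10 p rank (limma, adjusted p = 0.0494) and did not pass by fold rank (score 0.0045; limma, adjusted p = 0.993). At the 2 sites of the 7 endfoot genes that were lower in GR-KO under all scalings, upstream of Atp1b2 and of Mlc1, it was absent from the window searched.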

How the data were processed

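ATAC-seq libraries from 3 GR-Con and 3 GR-KO pools were used. Reads had been processed by the authors with ENCODE's ATAC-seq workflow, version 2.2.0 (multimapping 0, p threshold 0.01 for peaks), and 1 MACS2 peak list per library was deposited, in mm10, without pooling of replicates. For each summit the deposited lists hold its fold, a ratio of coverage to the background around it, and a −log10 p and −log10 q. Gene positions are from GENCODE M21, and sequences from the GRCm38 assembly.

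Sites of 401 bp were centred on summits in order of −log10 p rank without overlap, and 160876 of 203164 with a summit in at least 2 libraries were kept. Ranks within a list were turned into normal scores and fitted with limma 3.58.1 in R 4.3.3 (variance trend, no block, Benjamini-Hochberg over all sites, threshold 0.05). The authors' own limit on fold change has no counterpart for ranks. Summit coverage was solved from fold = (coverage + 1)/(background + 1) and the Poisson tail, which gave whole numbers within 0.02 in every list. It is scaled by the median, by the median local background of a library, by quantiles or by depth. Depth scaling divides by a low percentile of the backgrounds of each list (4.28 to 4.92 reads). This scaling was added after seeing the data, as were calls under all 4 scalings and the single motif arms. A total read depth is not given in the lists. Of the 156 sites near the genes, 136 to 143 had a peak in a given library, and 115 had one in all 6. The p-values measure the spread between pooled samples.

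Genes, lists and tests were chosen with earlier results of these data known. Named sites are, per gene, the promoter site (within 500 bp of a start site), the smallest p in either rank test, every site called or found in 1 genotype alone, and every site with the response element core; others are said to be chosen after seeing values. The limma fit by fold rank and the solved coverage were checked on simulated data. Whether replicate numbers pair the libraries is not known, and the main fits used no block. Exact permutation tests used scipy 1.17.1 in Python 3.11.15.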

Additional observations from a re-analysis of the deposited data

How the results depend on the processing

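Over all consensus sites, 204 were lower and 99 higher by fold rank, and 1351 and 1230 by −log10 p rank. By fold rank the counts (lower, then higher) were 445 and 242 where a peak had to cover more than 200 bp of a site, 288 and 153 with a peak in at least 3 libraries, 234 and 169 with a peak in all 6, and 1073 and 769 without the variance trend. By −log10 p rank they were 497 and 282 with the coverage rule and 1156 and 808 without the trend. Summit coverage called 2618 and 4670 sites scaled by the median, 2646 and 2907 by local background, 2932 and 3242 by quantiles and 3926 and 1966 by depth. Leaving out 1 library gave 0 to 3 lower and 0 to 0 higher sites by fold rank, and 176 to 812 and 194 to 382 by −log10 p rank.

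Near the 7 genes, fold ranks called 0 sites in either direction in every alternative that kept fold ranks. Ranked by −log10 p, 1 site was lower and 3 were higher. This became 0 and 0 with the 200-bp rule and without the trend, 2 and 4 among sites with a peak in all 6 libraries, 2 higher within 10 kb, and 0 to 1 lower and 0 to 1 higher with 1 library left out. Coverage gave 2 lower and 9 higher with the median, 2 and 5 with local background, 2 and 6 with quantiles, 3 and 2 with depth, and 1 to 2 and 5 to 10 with 1 library left out. The site with a peak in GR-Con libraries alone was lost (0 sites) with a q-value under 0.01 or lists of equal length, and within 100 kb there were 2. Such sites of GR-KO alone numbered 1 with the 200-bp rule and 1 within 100 kb. The difference in peaks per 100000 near the genes, -0.182, was 0.949 with a q-value under 0.01 and 1.11 with equal lists, less than the spread between libraries.

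Replicate numbers are shared between genotypes. The deviations of same-numbered libraries correlated by 0.0296, -0.00501 and 0.0255 (fold scores), and those of differently numbered libraries by -0.0329 to 0.00756. Such small values cannot show whether the numbers pair the samples. With a replicate block 0 and 0 sites were called by fold rank and 725 and 523 by −log10 p rank. Near the 7 genes the block left 0 and 0 by fold rank and 1 lower and 1 higher by −log10 p rank.

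At sites named by the rule, the differences that changed sign (scores for ranks, log2 for coverage) were of sites that passed no test. The Aqp4 site 10575 bp upstream, named after its values were seen, had -0.065 by fold rank against 0.132 by −log10 p rank and 0.394 by coverage scaled by the median, where it passed. The Aqp4 site with the core had 0.0424, 0.0194 and 0.00943 with coverage scaled by the median, local background and quantiles, and ranged from -0.0792 to 8.19e-05 by −log10 p rank and from -0.0367 to 0.0977 by coverage with 1 library left out. The Kcnj16 promoter had -0.00684, -0.0299, -0.0554 and -0.102 with the median, local background, quantiles and depth, and with 1 library left out -0.038 to 0.0549 by −log10 p rank and -0.0838 to 0.104 by coverage. With quantiles the promoters of Kcnj10, Mlc1 and Hepacam had -0.0201, -0.00673 and -0.00209. With 1 library left out those of Kcnj10 and Mlc1 ranged from -0.0121 to 0.0212 and from -0.0371 to 0.104 by −log10 p rank. The cause was not tested.

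The alternatives with depth, and coverage with a library left out, were chosen after seeing the data. Lists begin at a p of 0.01 and hold no value for a library without a peak, so at weak sites a missing peak and a low one cannot be told apart.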
